A study of Homo sapiens with 4 samples.

Results

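The 10 genes described here code for proteins that act at histone genes, act on histone mRNAs or carry histone proteins. All were probed in HEK293 cells after control siRNA or siRNA against CDC73. They were chosen by name (SLBP, NPAT, CASP8AP2, LSM10, LSM11, ERI1, HIRIP3, HIRA, ASF1A and NASP), and every probe with their symbol in the platform annotation was taken. This gave 12 probes of 48803 with a value, and 10 genes of the 18852 named on the array. The choice was made with results of these arrays known, so all values of the 10 genes are a description and carry no test.

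HEK293 is a line of human embryonic kidney origin that was transformed with adenovirus DNA. Per the labels, all cells received 100 pmol of siRNA, either control or hCdc73, were replated 24 hours later and were harvested after 24 more hours. Sparse cells were replated on a 100 mm dish and confluent cells on a 35 mm dish. Crossing 2 siRNAs with 2 densities gave 4 groups with 1 bead array each, so no difference below has a replicate check and no p-value is given. The sources used here give no siRNA sequences and do not say if the 4 dishes were transfected separately. The CDC73 protein, parafibromin, belongs to the PAF1 complex that accompanies RNA polymerase II along genes. The only named CDC73 probe had sparse signals of 72.3 (control) and 83.5 (CDC73) and confluent signals of 98.3 and 90.0. All lay below the detection limit, so the knockdown could not be checked and the siRNA groups rest on the labels.

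Most mRNAs end in a poly(A) tail, but those of the replication-dependent histones end in a conserved stem-loop. SLBP binds that stem-loop, the U7 snRNP with its subunits LSM10 and LSM11 pairs with a sequence downstream of it, and a cleavage complex cuts between them. NPAT and CASP8AP2 (FLASH) gather at the histone gene clusters in the histone locus body, and ERI1 trims and degrades the stem-loop end. Histone proteins are carried by chaperones, of which NASP and ASF1A hold histones H3 and H4. HIRA places the variant H3.3 in chromatin independently of replication, and HIRIP3 was named for its binding to HIRA. Many of these genes are most active around S phase. The arrays measured bulk RNA, so fewer cells in a cell cycle phase and less RNA per cell cannot be told apart.

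Over all arrays, total signal was 22948071 (CDC73 siRNA, confluent) to 28273404 (control siRNA, confluent), and 28.0% to 30.5% of probes were detected. A probe counted as detected when fewer than 1 in 100 of 453 probes for olfactory receptors, taken as not expressed, were as bright (a detection p under 0.01), which set the limit at a signal of 103 to 123. Of 11 HEK293 markers named on the array, 7 were detected on all 4 arrays and PAX2, PAX8, NEFM and INA on none, with a summed signal of 16106 to 25526. Of 11 markers of other cell types, 9 were detected on no array, while COL1A1 was detected on 4 and PECAM1 on 3, with a summed signal of 1042 to 1284.

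The start regions of HIRIP3, NPAT and ASF1A are shown. The first 2 were picked because they lie head to head with another measured gene. ASF1A was picked because, like HIRIP3 and NASP, it was lower with CDC73 siRNA at both densities, and by more than NASP. Each window runs from 250 bases before to 50 bases after a RefSeq start site (build GRCh38.p14), on the gene's strand. RefSeq lists a pair of start sites for HIRIP3, and which of their transcripts its single probe covers was not analysed here. The first HIRIP3 window is chr16:29996047-29996346, minus strand, and its capitals mark the 106 bases past the start site of INO80E, which is transcribed the other way. In the other windows, which are chr16:29995568-29995867 (minus strand), chr11:108222589-108222888 (NPAT, minus strand) and chr6:118893902-118894201 (ASF1A, plus strand), capitals mark CCAAT on either strand.
HIRIP3, upstream start site: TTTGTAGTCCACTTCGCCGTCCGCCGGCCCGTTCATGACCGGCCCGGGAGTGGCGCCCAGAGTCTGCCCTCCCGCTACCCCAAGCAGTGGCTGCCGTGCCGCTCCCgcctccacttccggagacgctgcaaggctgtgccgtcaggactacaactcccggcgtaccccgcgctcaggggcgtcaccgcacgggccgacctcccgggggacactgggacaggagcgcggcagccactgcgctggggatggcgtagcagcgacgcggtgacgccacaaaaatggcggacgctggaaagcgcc
HIRIP3, downstream start site: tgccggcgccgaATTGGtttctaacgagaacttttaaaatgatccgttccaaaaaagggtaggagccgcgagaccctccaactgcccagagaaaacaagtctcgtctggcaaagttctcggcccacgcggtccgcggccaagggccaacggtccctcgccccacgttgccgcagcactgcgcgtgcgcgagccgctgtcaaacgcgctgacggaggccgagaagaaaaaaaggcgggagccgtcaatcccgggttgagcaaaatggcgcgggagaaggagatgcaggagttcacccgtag
NPAT: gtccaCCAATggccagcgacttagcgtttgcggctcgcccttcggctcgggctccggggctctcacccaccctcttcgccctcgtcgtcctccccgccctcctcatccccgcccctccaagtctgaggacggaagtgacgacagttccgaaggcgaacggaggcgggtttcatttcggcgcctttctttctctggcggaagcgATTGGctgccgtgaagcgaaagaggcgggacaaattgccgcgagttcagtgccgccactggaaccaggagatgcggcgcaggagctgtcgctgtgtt
ASF1A: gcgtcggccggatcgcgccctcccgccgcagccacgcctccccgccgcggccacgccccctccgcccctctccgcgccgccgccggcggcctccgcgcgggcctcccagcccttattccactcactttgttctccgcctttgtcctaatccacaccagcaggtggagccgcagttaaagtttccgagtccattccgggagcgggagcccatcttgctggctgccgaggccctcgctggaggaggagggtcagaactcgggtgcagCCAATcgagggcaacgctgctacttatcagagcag

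Start regions were found for 9 of the 10 genes, in 10 windows. CCAAT (read on both strands) was found in 6 of the 10 windows, against 34.6% of all 35116 RefSeq windows of the same length. TTTNNCGC, a core of the E2F motif, was found in the CASP8AP2 and HIRA windows, 2 of 10 against 6.89% of all windows. Only the CASP8AP2 window held both motifs, and they did not overlap there. The palindromic NRF1 motif was in 0 of the 10 windows, against 1.24% of all. These are letter matches and not binding sites.

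HIRIP3 was the member with the largest siRNA difference. With control siRNA its single probe had a signal of 1094.5 in sparse and 1419.7 in confluent cells, and with CDC73 siRNA the signal was 206.7 and 246.4. Both control arrays were high and both CDC73 arrays low, with the low values still 1.91 and 2.40 times the detection limit. The unprocessed signal was 5.30-fold lower with CDC73 siRNA in sparse cells and 5.76-fold lower in confluent cells.

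**Figure D1:**
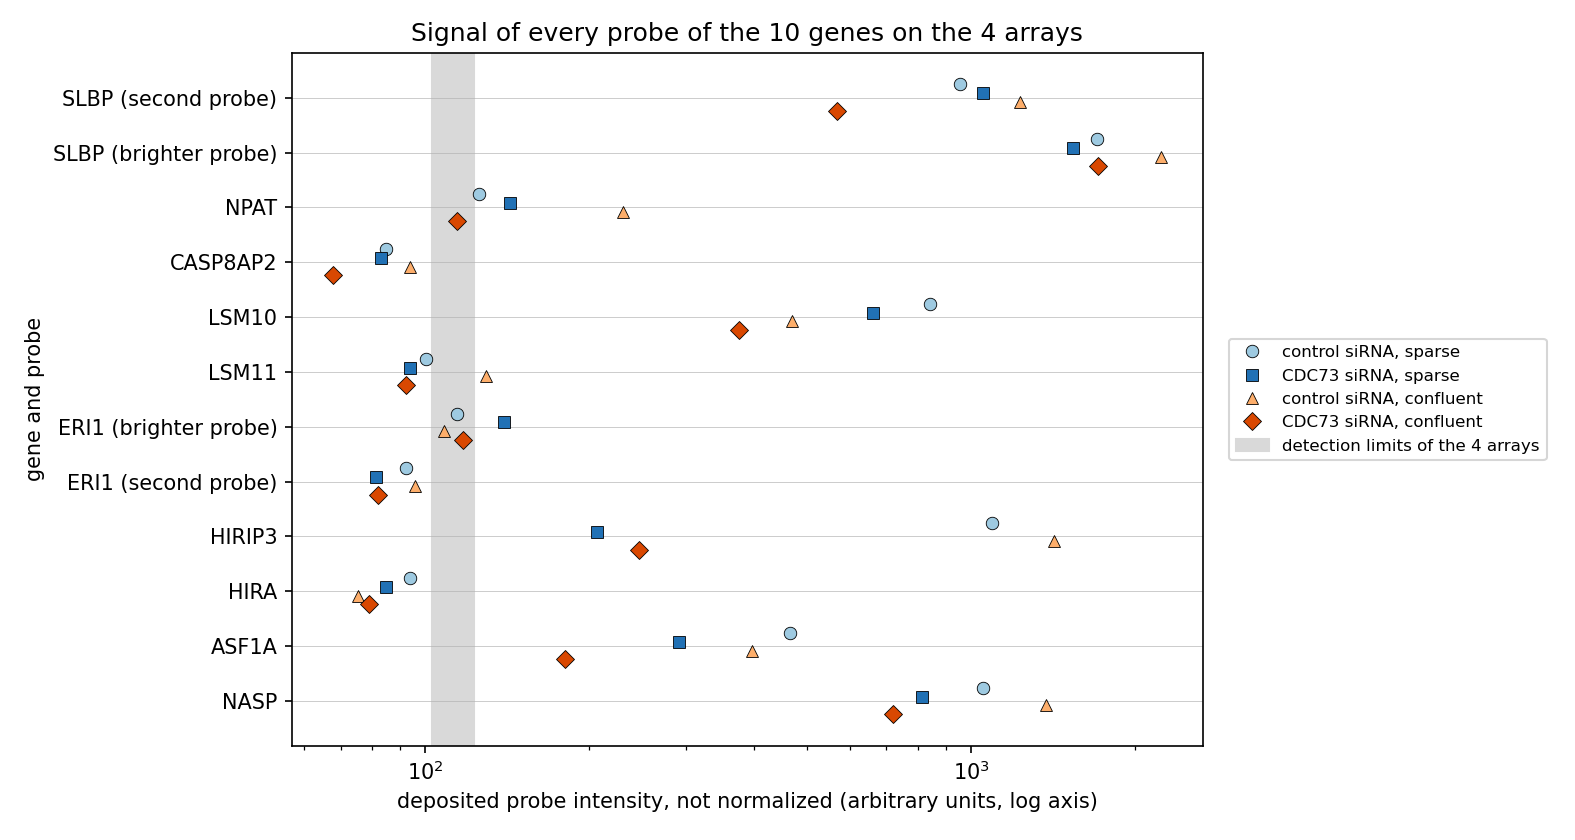
Deposited intensity (horizontal log axis, arbitrary units) of all 12 probes of the 10 genes (rows) on the 4 arrays, with markers for siRNA and density and a grey band for the detection limits of 103 to 123. HIRIP3 falls from above 1000 on the control arrays to 206.7 and 246.4 on the CDC73 arrays, while CASP8AP2, HIRA and the second ERI1 probe stay left of the band. Levels compare within a row only.

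After background correction and quantile normalization, HIRIP3 had log2 values of 10.00 with control and 7.21 with CDC73 siRNA when sparse, and 10.16 and 7.82 when confluent. The log2 difference was -2.79 in sparse cells, or 6.91-fold lower, and -2.34 in confluent cells, or 5.07-fold lower. In the authors' deposited log2 table the same differences were -2.45 and -2.18. Among genes detected on both arrays of a comparison, HIRIP3 was the lowest of 9269 in sparse cells and ranked 6 from the lowest of 9661 in confluent cells. The genes were chosen with results of these arrays known, so the ranks add no support. The spread between probes of 1 gene was taken from 1641 genes with 2 probes on all arrays. It was an SD per probe of 0.251 in sparse and 0.324 in confluent cells, but HIRIP3 itself has no second probe. This SD compares probes on the same arrays, so here and below it does not measure the spread between arrays or dishes.

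Density moved HIRIP3 much less than the siRNA did. Confluent minus sparse was 0.17 on the log2 scale with control siRNA and 0.61 with CDC73 siRNA. The first value lies within the SD per probe of 0.289 and the second above that of 0.329.

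The gene that starts next to HIRIP3 was not lower with CDC73 siRNA after normalization. INO80E, a subunit of the INO80 chromatin remodelling complex, starts 145 bases from the nearer HIRIP3 start site and 624 from the other, on the opposite strand. Sparse cells gave a signal of 581.9 (control) and 615.5 (CDC73) and confluent cells 578.8 and 557.9, nearly level over the 4 arrays. The log2 difference with CDC73 siRNA was 0.05 in sparse cells and 0.59 in confluent cells. The unprocessed INO80E signal was slightly lower on the CDC73 confluent array, which had the lowest total signal of the 4. This neighbour was looked up after the HIRIP3 values were known.

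**Figure D2:**
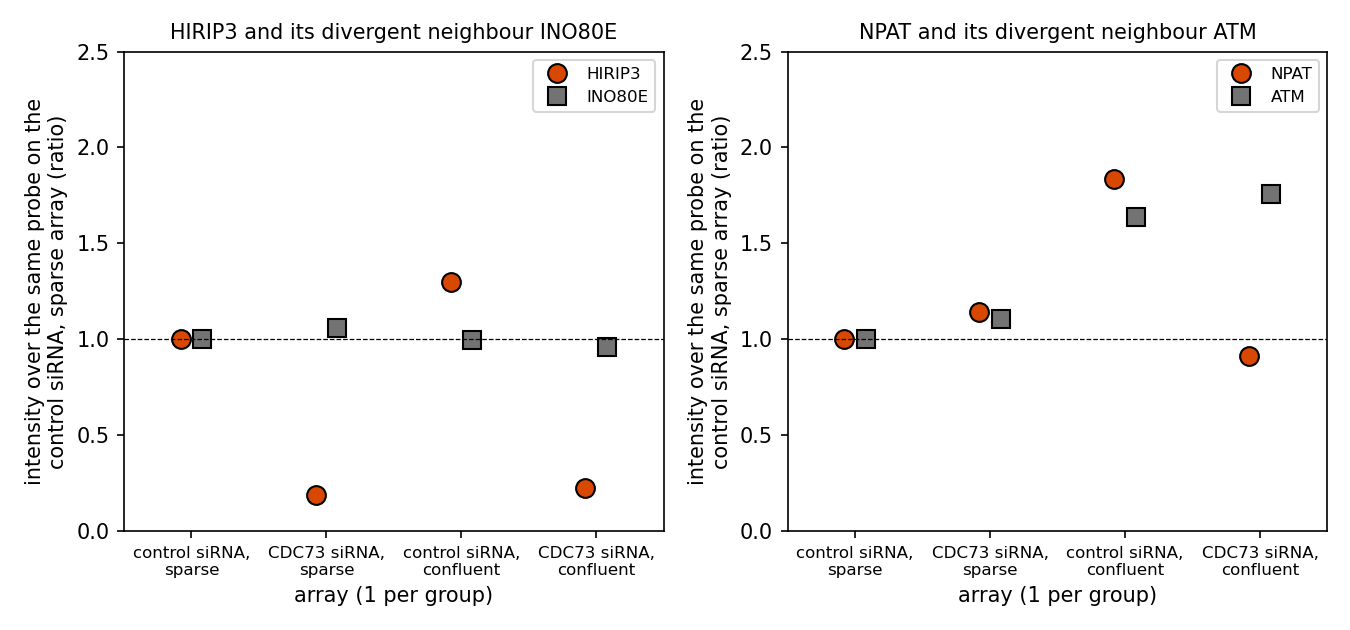
Signal of HIRIP3 and INO80E (left) and of NPAT and ATM (right) on each array, as a ratio to the same probe on the array of sparse cells with control siRNA (dashed line at 1). INO80E stays near 1 on all 4 arrays where HIRIP3 drops, and NPAT is high on the control confluent array only, while ATM is high on both confluent arrays.

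HIRA itself, the chaperone that HIRIP3 is named for, was not detected. Its probe had signals between 75.4 and 93.7, below the limit on every array, so no fold is given. The HIRA complex partners UBN1 and CABIN1, named here for that role rather than by the rule for naming genes, were detected on all 4 arrays. UBN1 was at 0.46 in sparse and -0.10 in confluent cells on the log2 scale, and CABIN1 at 0.44 and 0.16. No partner on the list (UBN1, UBN2, CABIN1) was 2-fold lower with CDC73 siRNA at either density. MRPL40, a mitochondrial ribosomal protein gene that starts 812 bases from HIRA on the opposite strand, was at -0.29 and 0.32.

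The H3 and H4 chaperones ASF1A and NASP were lower with CDC73 siRNA at both densities, by less than 2-fold. ASF1A, which hands H3 and H4 on to HIRA and to the replication chaperone CAF-1, had sparse signals of 466.5 (control) and 291.7 (CDC73) and confluent signals of 397.1 and 180.5. The CDC73 array was lower at each density, and all 4 values were at least 1.76 times the limit. On the log2 scale CDC73 minus control was -0.83 (sparse) and -0.88 (confluent), about 3 times the SD per probe. With median scaling the confluent value was -1.31, or -0.91 relative to the median of all genes. ASF1A was also lower in confluent than in sparse cells, by -0.64 with control and -0.69 with CDC73 siRNA.

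NASP, which holds a store of soluble H3 and H4, had sparse signals of 1053.3 (control) and 811.9 (CDC73) and confluent signals of 1373.3 and 719.5. Its log2 difference was -0.43 (sparse) and -0.41 (confluent), more than 1 but less than 2 SD per probe. Density left it at 0.17 with control and 0.18 with CDC73 siRNA. ASF1B, the paralogue of ASF1A that is more tied to proliferating cells, had differences of -0.25 (sparse) and -0.66 (confluent) and is likewise named for its role.

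Among the histone mRNA factors, the 2 SLBP probes disagreed. The brighter had sparse signals of 1701.1 (control) and 1539.9 (CDC73) and confluent signals of 2230.4 and 1710.3, with log2 differences of -0.17 and 0.13. The other had sparse signals of 956.5 and 1052.0 and confluent signals of 1230.7 and 567.9, with differences of 0.10 and -0.63. Their signs were opposite at both densities, and the gap between them in confluent cells is larger than the SD of 0.458 for the difference between 2 probes. Both probes carry the same transcript accession. No direction is given for SLBP after CDC73 siRNA.

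NPAT, the organiser of the histone locus body and a substrate of cyclin E and CDK2, was dim. Its sparse signals were 125.4 (control) and 143.3 (CDC73) and its confluent signals 230.2 and 114.5, that is 1.03 to 1.88 times the limit. The control confluent array stood above the other 3, which lay close together. With CDC73 siRNA its log2 value differed by 0.39 (sparse) and -1.07 (confluent), and confluent minus sparse was 1.01 with control and -0.45 with CDC73 siRNA. Both 2-fold values of NPAT thus rest on the 1 array of confluent cells with control siRNA. In the authors' deposited log2 table they were -0.63 and 0.64, under 2-fold.

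ATM, a DNA damage kinase, starts 429 bases from NPAT on the opposite strand. Its sparse signals were 300.0 (control) and 332.1 (CDC73) and its confluent signals 490.6 and 527.2. It was higher in confluent cells with either siRNA, at 0.47 and 1.08 on the log2 scale, where NPAT was higher with control siRNA only. CDC73 minus control was 0.15 for ATM in sparse and 0.76 in confluent cells. The ATM values were looked up after those of NPAT were known.

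LSM10 differed more with density than with siRNA. This U7 subunit had sparse signals of 840.4 (control) and 662.7 (CDC73) and confluent signals of 469.3 and 375.8, and both confluent arrays were below both sparse ones. Confluent minus sparse was -1.25 on the log2 scale with control siRNA (2.37-fold lower) and -0.59 with CDC73 siRNA. The siRNA difference was -0.39 (sparse) and 0.27 (confluent), and with median scaling of the arrays the latter was -0.21, or 0.18 relative to the median of all genes.

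LSM11, the other U7 subunit, was detected on the control confluent array only, at a signal of 129.2 against 92.1 to 100.2 on the others. The control confluent signal was only 1.05 times the limit. Set against the detection limit on the normalized scale, LSM11 was lower with CDC73 siRNA in confluent cells by a minimum of 1.11-fold. That minimum is within the SD per probe. The full difference is not known, as the signal with CDC73 siRNA lay below the limit. The log2 difference of LSM11 in confluent cells was -0.56, but -0.22 in the authors' deposited log2 table and -0.79 with median scaling. The size for LSM11 thus depended on the processing. ERI1 was detected on both CDC73 arrays, at 139.4 and 117.4, and on neither control array, at 114.5 and 108.5, through its brighter probe. Its unprocessed signal was 1.22-fold higher with CDC73 siRNA in sparse and 1.08-fold higher in confluent cells. The log2 differences were 0.20 and 0.40 in the authors' deposited log2 table and 0.61 and 0.69 after the normalization used here. The size for ERI1 thus depended on the processing, and no bound is given for it singly. It is set against the detection limit only within a median over members in confluent cells, given below. Its second probe was detected on no array. CASP8AP2, which helps recruit the cleavage complex, was not detected either, with signals between 67.9 and 93.7.

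**Figure D3:**
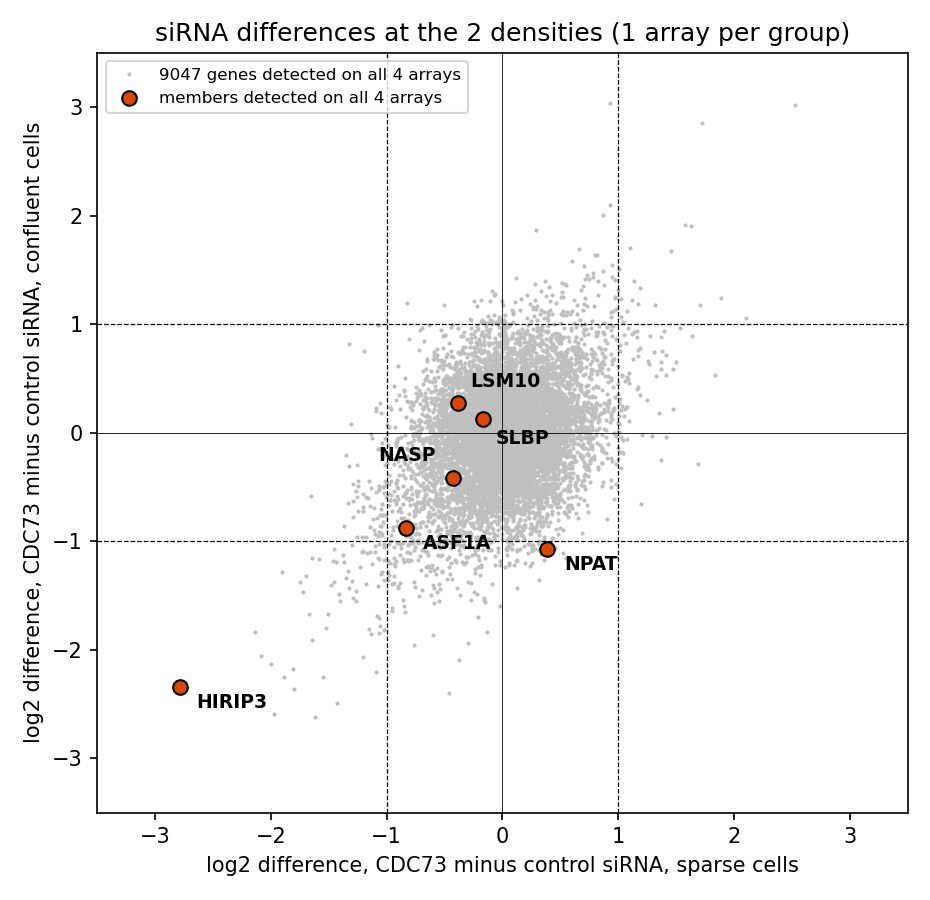
Log2 difference between CDC73 and control siRNA in sparse cells (horizontal) and confluent cells (vertical) for the 9047 genes detected on all 4 arrays (grey) and the 6 members among them (orange), with dashed lines at 2-fold. HIRIP3 lies far into the lower left corner at -2.79 and -2.34, ASF1A and NASP lie on the same side within 2-fold, and NPAT is past 2-fold in confluent cells only.

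Of the 10 genes, 7 were measured in sparse cells, meaning detected on at least 1 of the arrays compared. With CDC73 siRNA 1 of the 7, HIRIP3, was at least 2-fold lower, against 1.82% of 10179 genes measured, and 0 were at least 2-fold higher, against 2.12%. Their median was -0.39, beside 0.04 over all genes measured. In confluent cells 8 were measured, and HIRIP3 and NPAT were at least 2-fold lower, against 3.49% of 10499 genes, with 0 higher, against 2.27%. Of the 8, 5 were lower and 3 higher, beside 50.2% of all genes lower. SLBP was counted as higher through its brighter probe, at 0.13, while its second detected probe was at -0.63. With median scaling, under which the median of all genes was -0.398, 7 were lower and 1 higher and ASF1A also passed 2-fold, but relative to that median SLBP was at 0.15, LSM10 at 0.18 and ASF1A at -0.91. With quantile normalization the median over the 8 in confluent cells was -0.49, beside -0.003 over all genes. It was -0.28 with LSM11 and ERI1 set against the detection limit on the normalized scale. LSM11 and ERI1 entered through the side where they were brighter, so these counts and medians only describe. With so few members, each count turns on 1 or 2 genes.

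Between the densities, 7 members were measured with each siRNA. With control siRNA LSM10 was at least 2-fold lower in confluent cells, against 1.63% of 10247 genes, and NPAT at least 2-fold higher, against 3.86%. With CDC73 siRNA 0 members were 2-fold lower, against 3.89% of 10508 genes, or 2-fold higher, against 4.34%. These density comparisons use the same 4 arrays as the siRNA comparisons and are not separate evidence.

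The wider machinery lay near the median of all genes. Of 40 other histone mRNA processing genes named on the array, 36 were measured, and with CDC73 siRNA 22 were lower and 14 higher in sparse cells with a median of -0.05, while 18 were lower and 18 higher in confluent cells with a median of -0.01. Of all genes measured, 46.1% were lower in sparse and 50.2% in confluent cells. Scaled by array medians, where genes as a whole sat lower in confluent cells, the confluent split was 30 lower and 6 higher. Only CPSF2, a subunit of the cleavage complex, at -1.03, and WDR33, which reads the poly(A) signal, at 1.00, reached 2-fold, both in confluent cells, but WDR33 was at 0.59 with median scaling and CPSF2 at -0.88 in the authors' deposited log2 table. A second detected CPSF2 probe was at -0.60, and the other 3 detected WDR33 probes were at 0.91, 0.65 and -0.32. All 5 Sm proteins that complete the U7 ring were measured and stayed within 2-fold.

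Of 32 other histone chaperones named, 29 were measured with a median of 0.01 in sparse and -0.15 in confluent cells. In sparse cells 13 were lower and 16 higher with CDC73 siRNA, beside 46.1% of all genes lower. In confluent cells 20 were lower and 9 higher, beside 50.2% of all genes lower. With median scaling the confluent split was 26 and 3, with a median of -0.49, but the median of all genes was then -0.398. SUPT6H, a histone chaperone of transcription elongation, passed 2-fold upward in confluent cells after normalization, but it was detected on the CDC73 array only, at a signal of 136.9 against 114.0. The authors' deposited log2 table had it at 0.39, and it was named after its value was seen. ANP32A, an acidic nuclear protein of a histone chaperone family, was at -1.04 in sparse cells (-0.96 in the authors' deposited log2 table) and 0.18 in confluent cells. IPO4, the importin that brings H3 and H4 into the nucleus with ASF1, was at 0.47 in sparse and -0.30 in confluent cells and, with CDC73 siRNA, at -1.52 for confluent minus sparse. ANP32A was at -1.29 in that contrast with control siRNA.

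**Figure D4:**
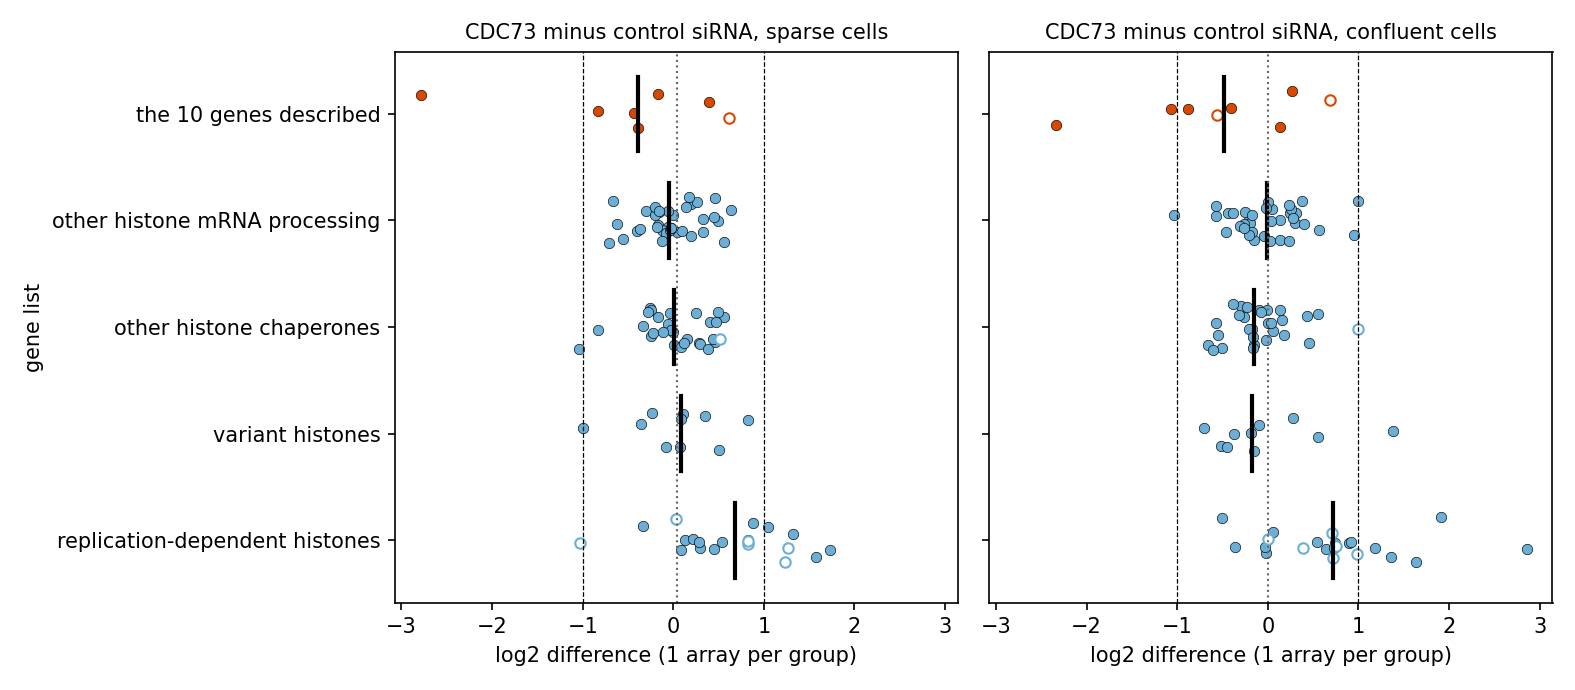
Log2 difference between CDC73 and control siRNA for measured genes of 5 lists in sparse cells (left) and confluent cells (right), with filled points for genes detected on both arrays, open points for genes detected on 1, black bars at list medians, a dotted line at the median of all genes and dashed lines at 2-fold. The medians of the other processing genes and chaperones lie between -0.15 and 0.01, and those of the replication-dependent histones at 0.68 and 0.73.

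Among the histone genes that this machinery serves, more of those tied to replication were higher than lower. Of 57 replication-dependent histone genes named, 20 were measured in sparse and 22 in confluent cells, and 18 were higher with CDC73 siRNA at each density, with medians of 0.68 and 0.73. Some of these were detected only on the array where they were brighter. Of those detected on both arrays, 1 of 14 was lower in sparse cells, with a median of 0.50, and 4 of 16 in confluent cells, with a median of 0.74. Of all genes measured, 46.1% were lower in sparse and 50.2% in confluent cells. With median scaling 18 of 20 and 16 of 22 were higher. H4C3, the brightest of these genes, was lower with CDC73 siRNA, at -0.33 in sparse and -0.51 in confluent cells. H3C13 was at -1.03 in sparse cells, detected on the control array only, and at -0.31 in the authors' deposited log2 table. Both were named after their values were seen. H2BC5 was at 1.73 in sparse and 2.86 in confluent cells, H2AC6 at 1.58 and 1.91, and H2BC12 at 1.32 and 1.18. A second detected H2BC5 probe was at 0.72 and 2.24. H2AC18 reached 2-fold in sparse cells only, at 1.05, and H1-2 and H4C8 in confluent cells only, at 1.64 and 1.36. Confluent minus sparse was 1.28 for H2AC18 with control siRNA, and with CDC73 siRNA 1.73 for H1-2, 1.17 for H2BC5 and 1.13 for H2AC18. With median scaling H4C8 was at 0.89 in confluent cells, and the density values with CDC73 siRNA were 0.87 for H2BC5 and 0.83 for H2AC18, under 2-fold. As background, the amplification kit named in the labels primes on poly(A) tails, which stem-loop histone mRNAs lack. The histone genes are closely related and their probes may share targets. Variant histones, which are not stem-loop processed in the main, had medians of 0.08 and -0.17 over 10 genes. Of the variants, H2AZ2 at -1.0 in sparse cells and H2AJ at 1.38 in confluent cells reached 2-fold with CDC73 siRNA, and H2AJ was at 1.15 for confluent minus sparse with that siRNA. In the authors' deposited log2 table H2AZ2 was at -0.72, and with median scaling H2AJ was at 0.87 with CDC73 siRNA in confluent cells. The density value of H2AJ with CDC73 siRNA was 0.86 with median scaling, also under 2-fold.

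The 5 genes with a profile most like HIRIP3 were the ceramide desaturase DEGS1, CNIH1 (a cargo receptor of the secretory pathway), CBFB (the partner of RUNX factors), the isocitrate dehydrogenase IDH1 and the membrane protein TMEM123. Likeness was the Euclidean distance between log2 values centred on each gene's mean over the 4 arrays, among 9047 genes detected on all of them, and ran from 0.769 (DEGS1) to 0.882 (TMEM123). DEGS1 was at -2.08 in sparse and -2.06 in confluent cells with CDC73 siRNA, and TMEM123 at -1.97 and -2.59. Of the other members, ASF1A had 386 genes nearer to HIRIP3 than itself and NASP 696, while LSM10 had 6521. With 4 single arrays this orders genes and shows no more.

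**Figure D5:**
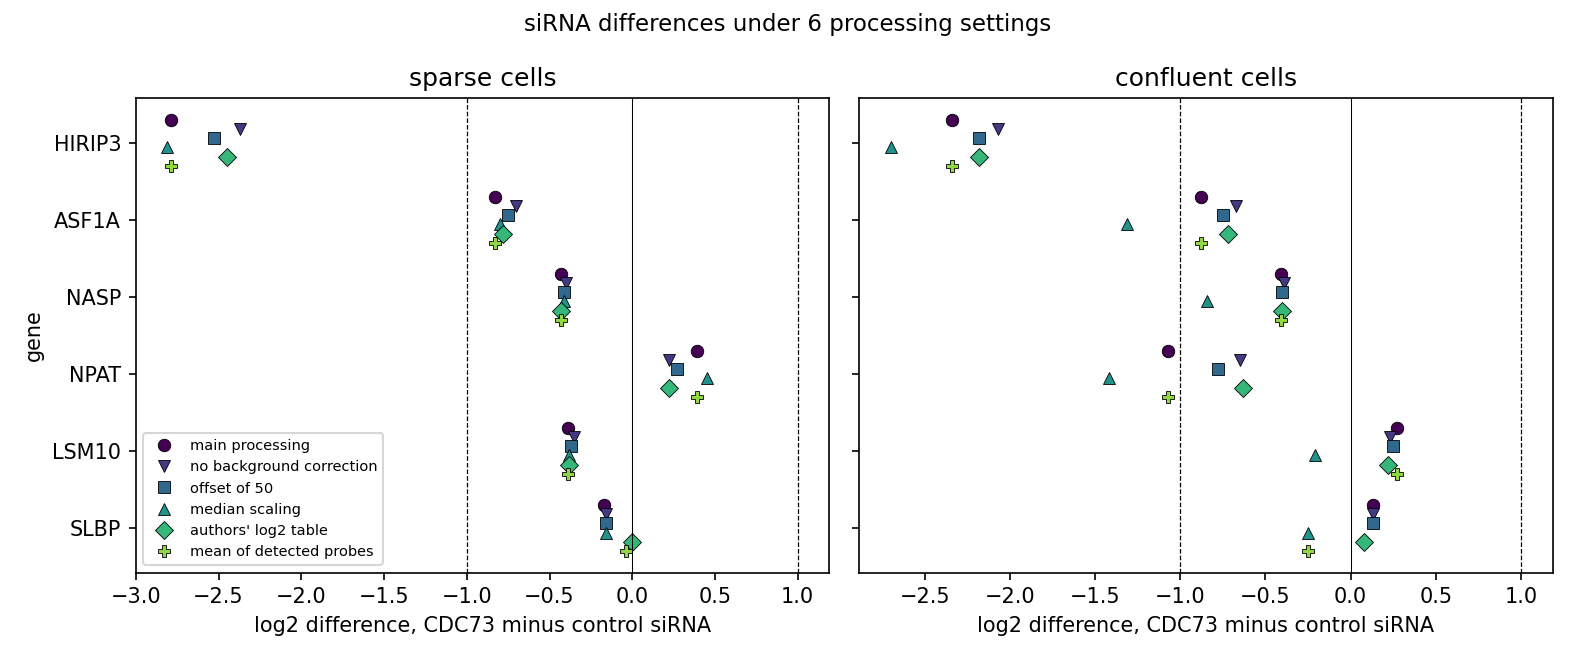
Log2 difference between CDC73 and control siRNA for the 6 members detected on all 4 arrays (rows) under 6 processing settings (markers), in sparse cells (left) and confluent cells (right), with dashed lines at 2-fold. HIRIP3 stays past 2-fold in every setting shown, ASF1A and NASP stay below 0, and SLBP and LSM10 lie on both sides of 0 in confluent cells, LSM10 below 0 with median scaling only.

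Over the alternatives of processing, HIRIP3 ranged from -2.81 to -2.37 in sparse and from -2.70 to -2.07 in confluent cells. ASF1A ranged from -0.83 to -0.70 and from -1.31 to -0.67, and NASP from -0.43 to -0.40 and from -0.84 to -0.39. Median scaling gave the lowest of the confluent values, and it moved the median of all genes measured in confluent cells to -0.398. Relative to that, HIRIP3 was at -2.31, ASF1A at -0.91 and NASP at -0.44.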

How the data were processed

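For the 4 arrays the authors deposited linear, non-normalized probe intensity in 1 table and log2 values in another. The log2 table has a median of 6.42 on each array and correlated with log2 intensity at 0.998 to 1.000, so scale and direction are settled. The software behind them is not stated in those tables or the labels. Of 49576 probes listed, 773 had no value, and 28098 had 1 gene symbol, 13 several and 20692 none in the platform annotation. Symbols were updated through RefSeq.

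Signal was background corrected with normexp (limma 3.58.1, R 4.3.3) on the panel of 453 olfactory receptor probes, an offset of 16 was added, and arrays were quantile normalized. A gene took its brightest named probe. Differences were described by size, with 2-fold as the limit. The number of arrays limits the precision. LSM11, detected on 1 side, carries a bound against the detection limit on the normalized scale. ERI1 is set against that limit only within a median over members in confluent cells. The 10 genes and all lists were chosen with earlier results of these data known. Named genes were all members, CDC73, genes of the other lists that were 2-fold different in any comparison and detected on both its arrays (failing that, the 2 most different each way), and the 5 genes most like HIRIP3, with exceptions marked. The normalization was also run on simulated arrays in which only some bright probes were shifted. Those arrays had no shift of a whole array, so they do not show how the normalization handles one.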

Additional observations from a re-analysis of the deposited data

Results flagged for a closer look

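Among the 6 members detected on all arrays, SLBP, NPAT and LSM10 had siRNA differences of opposite sign at the 2 densities. Each side has 1 array, and the difference between the densities was not tested. The share of all genes with opposite signs was not counted, so no trait of these members is read from this. The confluent siRNA difference minus the sparse one was -1.46 on the log2 scale for NPAT, 0.66 for LSM10 and 0.30 for SLBP. The NPAT signals lay at 1.03 to 1.88 times the detection limit. For SLBP the second probe gave -0.73, the opposite sign, and with median scaling SLBP and LSM10 were below 0 at both densities. Relative to the median of all genes under that scaling, the signs stayed opposite, at -0.23 and 0.15 for SLBP and -0.44 and 0.18 for LSM10.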

How the results depend on the processing

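Values were recomputed in 8 other ways. The signal was left uncorrected for background, given an offset of 50, scaled by array medians or taken from the log2 values of the authors. Detection was set at a p under 0.05, required on both arrays or dropped, and detected probes of a gene were averaged. HIRIP3 kept its sign and stayed past 2-fold with CDC73 siRNA at both densities in all 8. The detection settings and the averaging of probes could not move it, as its single probe was detected on every array. Only the background, offset, scaling and deposited log2 settings could. The count of members at least 2-fold lower with CDC73 siRNA in confluent cells was 2. It was 1 when the offset was 50, when background was not corrected and in the deposited log2 values, where NPAT fell short. With median scaling the count was 3, as ASF1A at -1.31 also passed 2-fold, though it was at -0.91 relative to the median of all genes. Median scaling gave a median over members of -0.82 in confluent cells, and a median difference of the siRNA differences of -0.26 where it was 0.16, as the median of all genes moved with it. The other medians and counts of 2-fold lower members moved by less than the SD per probe, or 1.5 times. No value of a member past 2-fold changed sign. Without background correction the 2-fold density difference of NPAT with control siRNA was 0.61. No paired analysis was possible because each group has 1 array. Dim probes limit what can be said of HIRA, CASP8AP2, LSM11, ERI1 and NPAT.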
